A study of Homo sapiens with 6 samples.

Results

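The retinoid receptor genes RARA, RARB, RARG, RXRA and RXRB, the nuclear body gene PML and 4 genes that respond to retinoic acid (DHRS3, CYP26A1, TGM2 and CD38) were followed in NB4 cells that expressed a guide RNA against lacZ or against ARID1A. The 10 genes were chosen by their symbols, from 52992 genes with a matched transcript, and their values were obtained by summing all transcripts of a gene. RNA was sequenced from NB4, an established acute promyelocytic leukemia line. The cells expressed Cas9 and, under doxycycline control, the small guide RNA (sgRNA), directed at the bacterial gene lacZ in the LacZ group, whose genotype is labelled WT, or at ARID1A in the groups sg1 and sg5, here called ARID1A-deficient as in their labels. Each of the 3 groups had 2 replicates, and doxycycline was given to all groups at 1 µg/ml for 7 days. The study's methods add a culture without doxycycline before RNA isolation and a sort for the fluorescent markers of both vectors, so that each sample was a sorted population and not a single clone. No retinoic acid treatment is named for these 6 samples, and they were taken as cells without added ligand.

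Retinoic acid acts through heterodimers of a retinoic acid receptor (RAR) and a retinoid X receptor (RXR) that sit on direct repeats in DNA. Without ligand the heterodimer holds corepressors, and with ligand it exchanges them for coactivators. NB4 cells carry a translocation that fuses PML to RARA. The fusion protein keeps retinoic acid targets repressed until pharmacological doses of all-trans retinoic acid are given, upon which the cells differentiate towards granulocytes. ARID1A encodes a DNA-binding subunit of SWI/SNF, which remodels chromatin. The tables listed Ensembl transcripts alone, 196354 of them, and no fusion transcript. Reads from the fusion are thus counted under PML and RARA, and the levels of these genes below do not separate the normal allele from the fused one.

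To show what a receptor binding site looks like in these genes, promoters were searched for 2 half-sites of 6 bases in tandem. The half-site was AGGTCA or its variant GGGTCA, or else AGTTCA or its variant GGTTCA. Both strands were searched, with 1, 2 or 5 bases between the half-sites. RefSeq promoters (GRCh38.p14, 250 bases before to 50 after each start) matched 8 of the 10 members, without PML and TGM2. The repeat with a spacing of 5 occurred in 31 of 35114 promoters (0.0883%), and 2 of these belonged to members, RARB and CYP26A1. No member held the repeat with a spacing of 1 (0.131% of all promoters) or 2 (0.0399%). The sequences are given on the plus strand with the half-sites in capitals. That of CYP26A1 reads as a direct repeat on the minus strand.
RARB: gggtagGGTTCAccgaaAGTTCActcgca
CYP26A1: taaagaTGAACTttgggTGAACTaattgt
The RARB window lies at chr3:25428204-25428232, and its repeat ends 36 bases before the annotated start, in an intron of RARB-202 and upstream of the first exon of RARB-203. That of CYP26A1 lies at chr10:93073797-93073825, within an untranslated exon of 1 annotated CYP26A1 transcript and upstream of the start of another. The RARB repeat is the textbook retinoic acid response element, and both genes are known to be switched on by the ligand. A match describes the letters only and is no measure of receptor binding.

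Total estimated counts per sample were between 46131178 and 54843745. The spread between replicates did not follow the groups alone: sg1 replicate 1 and sg5 replicate 2 stood apart on the first principal component (34.4% of the variance), at scores of 34.3 and 46.8, whereas the other 4 samples were at -30.3 to -11.3. Values without these samples are given where they turn a result. ARID1A mRNA was at 29.6 and 35.1 TPM (a level scaled to transcript length and library size) in the LacZ samples, 38.0 and 36.4 in the sg1 samples and 24.3 and 26.9 in the sg5 samples. Its change in ARID1A-deficient cells was -0.07 on the log2 scale (SE 0.12, adjusted p = 0.904 by edgeR). This mean joins values of opposite sign, 0.22 in sg1 (SE 0.14, adjusted p = 0.993) and -0.36 in sg5 (SE 0.14, adjusted p = 0.661). The mRNA level of an edited gene need not fall, so these values do not check the labels. Promyelocyte markers were abundant, with MPO between 5991 and 7769 TPM, except for ELANE at 0.0353 to 0.290 TPM. The red cell gene HBB and the B cell gene MS4A1 were at or near 0, while the T cell gene CD3D was at 12.2 to 19.1 TPM and CD3E at 0 to 0.0410.

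NB4 cells of every group had RARA as their main RAR transcript and RXRA as their main RXR transcript, while the response genes other than CD38 were near 0. RXRA was the most abundant at 61.1 to 79.3 TPM over the 6 samples. Next came PML and RXRB, whose ranges of 36.5 to 42.0 and 31.6 to 43.3 TPM overlapped, and RARA at 29.3 to 33.7 TPM, whose upper end reached into the range of RXRB. CD38 stood below these at 5.78 to 10.03 TPM. RARG was at 0.303 to 1.18 TPM, and RARB, DHRS3, CYP26A1 and TGM2 were below 0.4 TPM in every sample, and of these 4 genes only CYP26A1 and TGM2 had ranges that did not overlap. RARA supplied 95.8% to 98.6% of the summed TPM of the 3 RAR genes in each sample. RXRA exceeded RXRB 1.58-fold to 2.25-fold, and the 2 RXR genes together exceeded the RAR genes 3.12-fold to 3.51-fold.

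**Figure D1:**
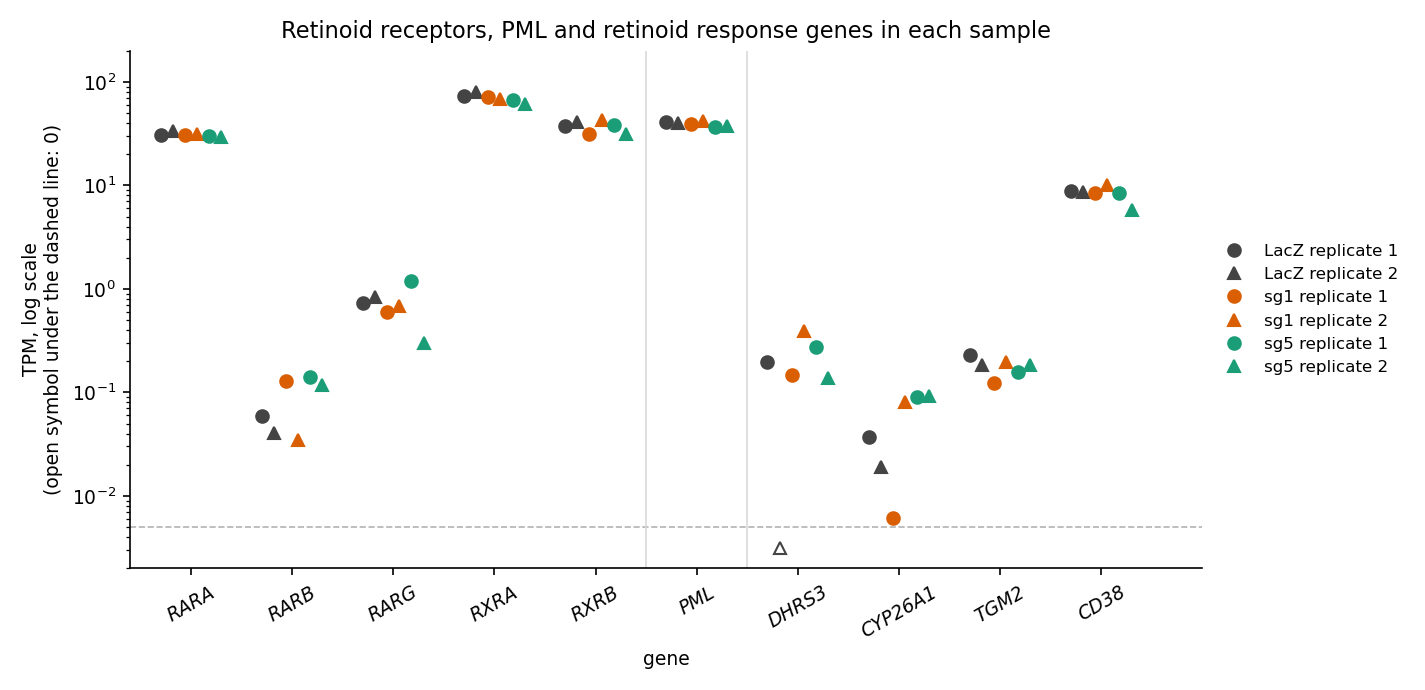
Level of each of the 10 genes in each of the 6 samples (TPM on a log axis, with circles for replicate 1 and triangles for replicate 2, and an open symbol under the dashed line for a level of 0). RXRA, PML, RXRB and RARA sat between 29.3 and 79.3 TPM in every sample, while RARB, DHRS3, CYP26A1 and TGM2 stayed under 0.4 TPM.

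Differences between groups were tested with the quasi-likelihood test of edgeR over 18514 genes, 8 of them members, since DHRS3 and CYP26A1 did not pass the filter on low counts. A false discovery rate (FDR) of 0.1 was the threshold. Of the 8 members tested, 0 passed in sg1 against LacZ, where 0.0378% of all genes did. Likewise 0 of 8 passed in sg5 against LacZ (0.0972% of all genes), 0 of 8 in the mean of sg1 and sg5 against LacZ, called the ARID1A-deficient comparison below (0.167%), and 0 of 8 in sg1 against sg5 (0.0054%). With so few genes called in all, a count of 0 among 8 members is no result about these genes. At an unadjusted p under 0.05, 0 members were found in any of the 4 comparisons, and DESeq2 likewise called 0 members and found 0 at an unadjusted p under 0.05. DESeq2 gave no adjusted p for 2 members in sg1, 3 in sg5 and 4 in the ARID1A-deficient comparison, and so could not call them. In the last comparison RARB and TGM2 were among these. The median log2 fold change of the 8 members was -0.11 in ARID1A-deficient cells, beside -0.01 over all genes tested, and 7 of 8 values were below 0. Without the 2 libraries that stood apart, 9 members passed the filter, with a median of -0.01 and 5 values below 0. Comparisons of sg1 and of sg5 with LacZ share the LacZ samples, so that their values are not independent. The labels do not say that replicates came from separate cultures, and the p-values measure the spread between these samples, which may be technical.

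Among the RARs, RARA, the receptor that is fused in this leukemia, was at 31.0 and 33.7 TPM in the LacZ samples, 30.5 and 31.1 in the sg1 samples and 29.9 and 29.3 in the sg5 samples. The groups overlapped, since replicate 2 of sg1 lay above replicate 1 of LacZ. In ARID1A-deficient cells the log2 fold change of RARA (ENSG00000131759, chr17:40309192-40357643, plus strand, on GRCh38 as for all genes below) was -0.08 (SE 0.10, 95% interval -0.30 to 0.15, adjusted p = 0.858). It was -0.03 in sg1 (SE 0.11) and -0.12 in sg5 (SE 0.11). RARA shares 556 of 4731 exon bases with the antisense gene RARA-AS1, which was at a mean of 0.0364 TPM.

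RARB, which is both a receptor and a target of retinoic acid, was close to the limit of detection. Its level was 0.0596 and 0.0406 TPM in the LacZ samples, 0.128 and 0.0346 in the sg1 samples and 0.142 and 0.117 in the sg5 samples. These values rested on 6 and 4 estimated counts in the LacZ samples, 13 and 3 in the sg1 samples and 13 and 12 in the sg5 samples. Thus 3 of the 4 ARID1A-deficient samples lay above LacZ, and replicate 2 of sg1 lay below it. The log2 fold change of RARB (chr3:25174332-25597932, plus strand) in ARID1A-deficient cells was 1.07 (SE 0.68, 95% interval -0.47 to 2.61, adjusted p = 0.753), and no difference was detectable at this depth. It rested in part on replicate 1 of sg1, without which it was 0.44. RARB also shares 28 exon bases on the opposite strand with TOP2B, which was at a mean of 87.2 TPM, and the sources do not state that counting used the strand.

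RARG, the third receptor, was at 0.730 and 0.836 TPM in LacZ and 0.595 and 0.690 in sg1. In sg5 the replicates fell on either side of the other samples, at 1.18 and 0.303 TPM, or 79 and 18 estimated counts. The log2 fold change of RARG (chr12:53210567-53232980, minus strand) in ARID1A-deficient cells was -0.20 (SE 0.50, 95% interval -1.34 to 0.93, adjusted p = 0.938). Its sign depended on the sg5 samples: it was 0.16 without replicate 2 of sg5 and -0.95 without replicate 1.

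RXRA, the RXR partner of RAR, was at 73.8 and 79.3 TPM in the LacZ samples, 71.1 and 68.2 in the sg1 samples and 66.6 and 61.1 in the sg5 samples. All 4 ARID1A-deficient samples lay below both LacZ samples, and RXRA was the only one of the 8 members tested with such a pattern, in TPM as well as in CPM, the counts scaled to library size. Over all genes tested, 12.4% had every ARID1A-deficient sample below both LacZ samples in TPM, and 6.49% had every one above. By CPM these shares were 10.4% and 9.72%. The share among the members, 1 of 8, is thus near that of all genes. Its log2 fold change (chr9:134317098-134440585, plus strand) was -0.13 in ARID1A-deficient cells (SE 0.09, 95% interval -0.34 to 0.09, adjusted p = 0.773), -0.07 in sg1 (SE 0.11) and -0.18 in sg5 (SE 0.11). The mean TPM in ARID1A-deficient cells was 0.872 of that in LacZ, and within LacZ the higher replicate was 1.07 times the lower.

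RXRB, the other RXR gene with a sizeable level, was at 37.8 and 41.2 TPM in the LacZ samples, 31.6 and 43.3 in the sg1 samples and 38.6 and 31.6 in the sg5 samples. Its highest value and one of its lowest both came from sg1. The log2 fold change (chr6:33193588-33200688, minus strand) was -0.09 (SE 0.13, 95% interval -0.39 to 0.22, adjusted p = 0.887). Its sign turned to 0.057 without the 2 libraries that stood apart on the first component, and to 0.025 without replicate 2 of LacZ. RXRB shares 244 of 3920 exon bases with SLC39A7 on the opposite strand, which was at a mean of 56.9 TPM.

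PML, which encodes the scaffold of nuclear bodies, was at 40.8 and 40.2 TPM in the LacZ samples, 39.0 and 42.0 in the sg1 samples and 36.5 and 37.6 in the sg5 samples. Both sg5 samples were the lowest, and sg1 lay on either side of LacZ. The log2 fold change (chr15:73994673-74047812, plus strand) was -0.02 in ARID1A-deficient cells (SE 0.09, 95% interval -0.23 to 0.18, adjusted p = 0.961), 0.02 in sg1 and -0.07 in sg5. PML exceeded RARA 1.19-fold to 1.35-fold in TPM in the 6 samples.

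Of the response genes, CD38 was the only one with a clear level. It encodes an NAD-consuming ectoenzyme and is induced by retinoic acid in myeloid cells. CD38 was at 8.83 and 8.58 TPM in the LacZ samples, 8.46 and 10.03 in the sg1 samples and 8.43 and 5.78 in the sg5 samples. Replicate 2 of sg1 was above LacZ and replicate 2 of sg5 well below it, so that the groups overlapped. Its log2 fold change (chr4:15778275-15853230, plus strand) was -0.14 in ARID1A-deficient cells (SE 0.13, 95% interval -0.43 to 0.15, adjusted p = 0.803), -0.05 in sg1 and -0.23 in sg5.

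TGM2, a transglutaminase known to rise steeply in NB4 cells given retinoic acid, was at 0.230 and 0.184 TPM in the LacZ samples, 0.124 and 0.197 in the sg1 samples and 0.156 and 0.184 in the sg5 samples. These levels rested on 13 to 21 estimated counts per sample. The groups overlapped, and the log2 fold change (chr20:38127387-38166578, minus strand) was -0.26 (SE 0.40, 95% interval -1.16 to 0.64, adjusted p = 0.883). TGM2 shares 394 of 8036 exon bases with RPRD1B on the opposite strand, at a mean of 34.9 TPM, and how many of the few TGM2 reads came from RPRD1B was not tested.

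The remaining members act on the ligand itself. DHRS3 reduces retinal to retinol, and CYP26A1 oxidizes retinoic acid for removal. DHRS3 (chr1:12567910-12617731, minus strand) was at 0.196 and 0 TPM in the LacZ samples, 0.148 and 0.395 in the sg1 samples and 0.277 and 0.137 in the sg5 samples, on 10 or fewer estimated counts per sample. Replicate 2 of LacZ had 0 counts, which allows up to 3 counts or 0.0575 CPM, counting error only, and replicate 1 of LacZ lay among the ARID1A-deficient samples. CYP26A1 (chr10:93073475-93077890, plus strand) was at 0.0369 and 0.0189 TPM in LacZ and at 0.00612 and 0.0806 in sg1. It was at 0.0893 and 0.0913 TPM in sg5. Its estimated counts, rounded, were 3 and 2 in the LacZ samples, 0 and 6 in the sg1 samples and 7 and 8 in the sg5 samples, so that 3 of 4 ARID1A-deficient samples lay above LacZ and 1 below. CYP26A1 shares 750 of 2972 exon bases with AL358613.3 on the same strand, a gene for which no level was available. The part of AL358613.3 in the few CYP26A1 counts was not tested. Neither DHRS3 nor CYP26A1 was tested with edgeR. DESeq2 gave a log2 fold change of 1.26 for DHRS3 (SE 1.39, unadjusted p = 0.363) and 1.07 for CYP26A1 (SE 1.51, unadjusted p = 0.477) with no adjusted p, and no difference was detectable at this depth. In bulk samples, fewer cells expressing a gene and less RNA per cell cannot be told apart.

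**Figure D2:**
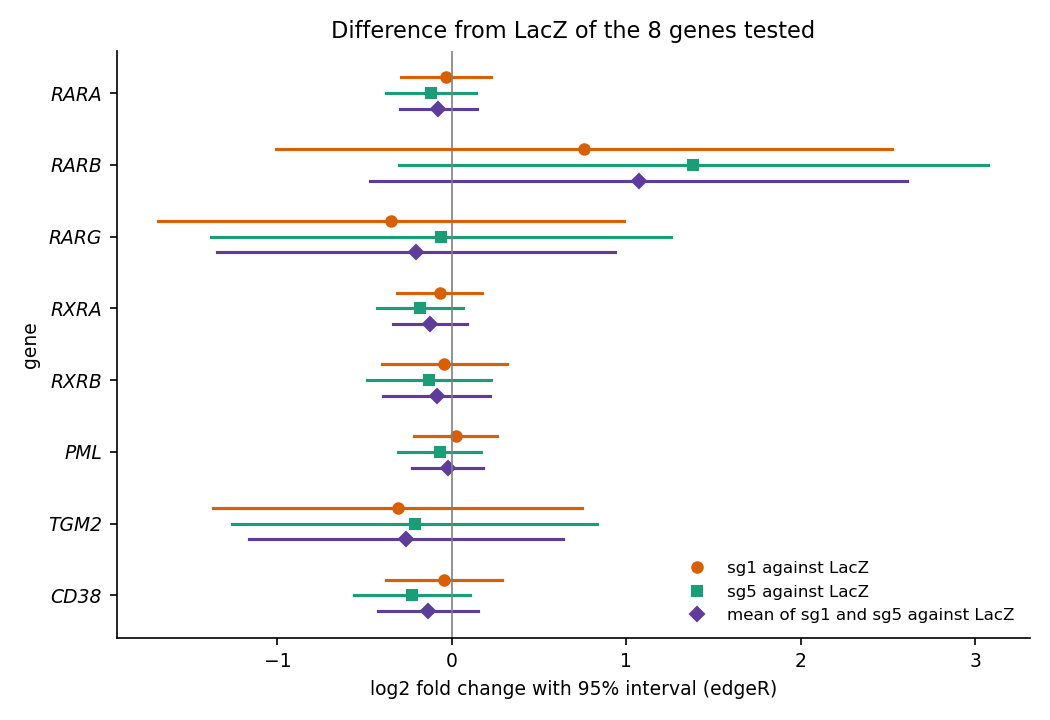
Log2 fold changes of the 8 tested members against LacZ (x axis) with 95% intervals from edgeR, for sg1 (circles), sg5 (squares) and the mean of both (diamonds). All intervals span 0, and they are narrow for RARA, RXRA, RXRB, PML and CD38 and wide for RARB, RARG and TGM2.

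Transcripts of RARA were next examined, since its alternative starts give receptor forms with different first domains. All 10 transcripts of GENCODE release 29 were in the tables, and 2 were at 0 in all samples. RARA-204 and RARA-206, which begin within 40318281 to 40318285 on chromosome 17, held 74.4% and 78.1% of RARA TPM in the LacZ samples, 78.9% and 67.2% in the sg1 samples and 72.0% and 66.8% in the sg5 samples. Transcripts with the most upstream start (RARA-201 and RARA-208) held 17.1% and 9.53% in the LacZ samples, 12.1% and 19.7% in the sg1 samples and 15.7% and 21.3% in the sg5 samples. Both groups of transcripts overlapped between LacZ and ARID1A-deficient cells. Each holds a transcript of 462 codons, RARA-204 in the first named group and RARA-201 in the other, so the split does not divide receptor forms. Transcripts that start further downstream, among them RARA-202, held 8.5% to 13.1%.

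RARA-204 was the leading transcript at a mean share of 40.7%, with 13.2 and 14.9 TPM in the LacZ samples, 12.7 and 10.6 in the sg1 samples and 12.9 and 11.1 in the sg5 samples. Every ARID1A-deficient sample was below both LacZ samples, as in 9.37% of all transcripts tested, and among the 23 RARA and PML transcripts tested it was the only one to lie so. RARA-207, named after its values were seen, lay the other way, at 0.772 and 0.749 TPM in LacZ and 1.31 to 1.51 TPM in ARID1A-deficient samples, as did 5.67% of all transcripts tested. The log2 fold change of RARA-204 was -0.20 (SE 0.16, unadjusted p = 0.250, adjusted p = 1 by edgeR). RARA-201, which like RARA-204 encodes 462 codons, the length of the RARα1 form, was at 4.09 and 2.99 TPM in the LacZ samples, 2.82 and 5.30 in the sg1 samples and 3.40 and 5.003 in the sg5 samples. RARA-206, with 365 codons, held a mean of 32.2%, and RARA-205, which is annotated as noncoding, held 5.86%. RARA-206 is 2240 bases long in the tables and 3041 in GENCODE 29, so the transcript set of the authors was a different one. RARA-202, which has the RARα2 start and 457 codons, was at or near 0, with a mean of 0.0456 TPM.

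For PML, the alternative 3′ exons set the C terminus of the protein and so define its isoforms. Of 22 transcripts in the tables, 2 were at 0 in all samples. Transcripts that start in the first exon and end furthest upstream, at or before 74036394 on chromosome 15, held 31.6% to 38.3% of PML TPM. Those ending at 74043337 or 74043338 held 14.9% to 21.6%, those ending furthest downstream 27.2% to 33.6%, and those starting downstream of the first exon 16.5% to 22.8%. No group of ends separated LacZ from ARID1A-deficient cells. PML-201 (882 codons, the PML-I form) was the leading transcript at a mean of 26.6%, with 11.0 and 11.1 TPM in the LacZ samples, 10.1 and 10.6 in the sg1 samples and 11.0 and 9.03 in the sg5 samples. PML-203 followed at 23.1%, with 7.09 and 8.63 TPM in the LacZ samples, 9.59 and 11.7 in the sg1 samples and 10.3 and 7.30 in the sg5 samples.

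PML-206 (633 codons, PML-IV) varied more than either of these, at 2.82 and 4.66 TPM in the LacZ samples, 3.28 and 0.841 in the sg1 samples and 0.937 and 1.18 in the sg5 samples. Its log2 fold change was -1.28 (SE 0.57, unadjusted p = 0.0714, adjusted p = 1), or between -1.96 and -0.87 with 1 sample left out, and replicate 1 of sg1 lay between the LacZ samples. PML-211 was at 2.96 TPM in replicate 1 of LacZ and 0.0624 in replicate 2, while PML-206 was higher in replicate 2, and the summed level of transcripts with that end was 6.89 and 6.38 TPM. PML-207 (611 codons, PML-V) and PML-212, a retained intron form, held 5.75% and 5.11%.

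In a test over 78622 transcripts, edgeR called 0% in ARID1A-deficient cells (0 transcripts, with 3397 or 4.32% at an unadjusted p under 0.05), and 0 of the 23 RARA and PML transcripts tested. Among these 23, 3 had an unadjusted p under 0.05: RARA-207 at 0.0463 with a log2 fold change of 0.96, PML-220 at 0.0215 with -2.01 and PML-202 at 0.0410 with -3.01, all 3 named after their values were seen. The groups overlapped for both PML transcripts. PML-220 was at 1.72 and 0.363 TPM in LacZ and 0.373 in replicate 2 of sg5. PML-202 was at 2.64 and 1.57 TPM in LacZ and 2.42 in replicate 2 of sg5. DESeq2 called 625 transcripts in all and 0 of RARA or PML, with 3 PML transcripts at an unadjusted p under 0.05. Counts of single transcripts carry an error from dividing shared reads that these tests do not see.

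**Figure D3:**
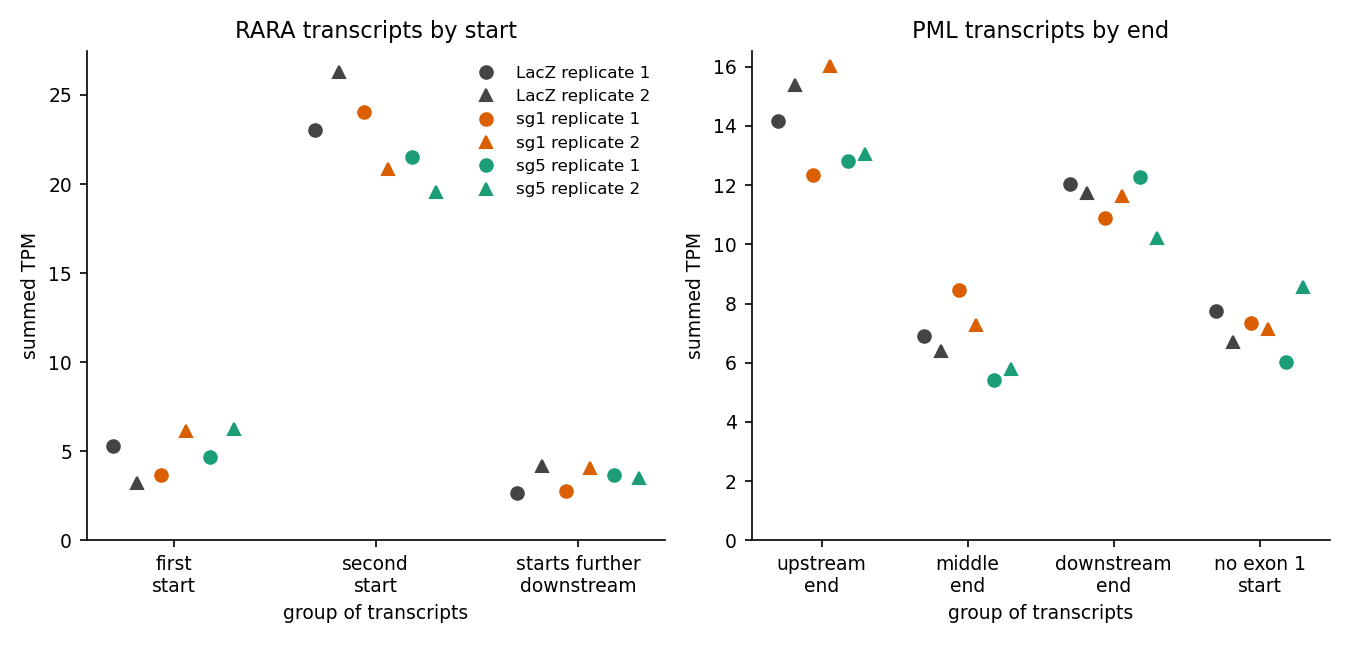
Summed TPM (y axis) of RARA transcripts grouped by start and PML transcripts grouped by end, in each of the 6 samples, with circles for replicate 1 and triangles for replicate 2. The second RARA start led in every sample at 19.5 to 26.3 TPM, and LacZ and ARID1A-deficient samples overlapped in each PML group.

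Other genes of the pathway were taken from 8 lists of retinoid genes and cell type markers and read in the ARID1A-deficient comparison. Of 22 genes for retinoid supply and breakdown, 17 were tested and 0 passed in either direction with edgeR, with 3 at an unadjusted p under 0.05, where 7.21% of all genes tested were, and a median log2 fold change of -0.04. STRA6, the membrane receptor that takes up retinol, was at 6.20 and 4.81 TPM in the LacZ samples, 2.20 and 2.29 in the sg1 samples and 2.37 and 1.11 in the sg5 samples. All 4 ARID1A-deficient samples were below both LacZ samples, as in 12.4% of all genes. The log2 fold change of STRA6 was -1.66 (SE 0.29, 95% interval -2.32 to -0.99), and its adjusted p of 0.132 with edgeR missed the threshold. DESeq2 gave -1.65 with an adjusted p of 6.53e-05, which passed, and over all alternatives the adjusted p ran from 7.38e-10 to 0.819. With edgeR it passed once either sg5 sample was left out, but not without either LacZ sample or either sg1 sample. The log2 fold change of STRA6 was between -1.98 and -1.43 with 1 sample left out.

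DHRS9, a dehydrogenase that oxidizes retinol, was at 21.4 and 16.2 TPM in the LacZ samples, 31.5 and 25.1 in the sg1 samples and 29.4 and 32.1 in the sg5 samples. Here every ARID1A-deficient sample lay above both LacZ samples, as in 6.49% of all genes by TPM and 9.72% by CPM. The log2 fold change of DHRS9 was 0.67 (SE 0.16, 95% interval 0.31 to 1.02, adjusted p = 0.296 with edgeR). DESeq2 gave 0.68 with an adjusted p of 0.0158, and over all alternatives it ran from 0.000315 to 1. Of the rest, the ligand carriers CRABP2 and FABP5 were detected, whereas CRABP1 was at 0 in all samples.

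Receptor corepressors and coactivators numbered 16, of which 15 were tested and 0 passed, with a median of 0.02 and 1 gene at an unadjusted p under 0.05. The coactivator subunit MED1 was at 0.24, and at 0.07 without the libraries that stood apart. Of the other RXR partners, 10 of 12 were tested and 0 passed (2 at an unadjusted p under 0.05), with a median of -0.07. The orphan receptor genes NR4A2 and NR4A3 were at -0.81 and -1.61, the latter at under 0.1 TPM in all samples. PML nuclear body proteins were all tested, 14 of 14, and 0 passed, with 0 at an unadjusted p under 0.05. Their median log2 fold change was 0.15 beside -0.01 over all genes, 11 values were above 0, and SUMO2, whose product modifies PML, was at 0.25. The level moved with the 2 libraries that stood apart: the list summed to 1154 and 1147 TPM in these, 1024 and 1058 TPM in the other ARID1A-deficient samples and 955.7 and 1036 TPM in the LacZ samples. Without them the median was 0.06 and SUMO2 was at 0.15, while 13 of 14 values were above 0. In DESeq2, 0 genes of these 3 lists passed in this comparison.

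Of 22 other genes known to rise with retinoic acid in myeloid cells, 21 were tested and 0 passed with edgeR, with 2 at an unadjusted p under 0.05. Their median was -0.17, and 13 values were below 0 and 8 above. Without the 2 libraries that stood apart the median was -0.07, and 5 genes passed in a fit that called 807 of 19255 genes. PRAM1, an adaptor gene described as repressed by the PML-RARA fusion, was at 103 and 95.2 TPM in the LacZ samples, 54.6 and 76.5 in the sg1 samples and 74.4 and 59.1 in the sg5 samples. PRAM1 was thus not silent in these cells, at percentile 89.8 by TPM of the genes tested, and the part of the fusion in its level was not tested. Its log2 fold change was -0.55 (SE 0.14, adjusted p = 0.350), and DESeq2 called it with an adjusted p of 0.0710, in a range of 0.000977 to 1 over all alternatives. ASB2, a ubiquitin ligase subunit and direct retinoic acid target, was at -0.48 (adjusted p = 0.417).

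Markers of cell types were read in the same comparison. Of 6 promyelocyte markers, 5 were tested, 0 passed with edgeR and 2 were at an unadjusted p under 0.05. All 5 were below 0 with a median of -0.21, and DESeq2 called CTSG (-0.51) and AZU1 (-0.34) lower. Their summed level was 8139 to 9023 TPM in LacZ and 6816 to 8059 TPM in ARID1A-deficient cells. This sum was mainly MPO, at 6913 and 7769 TPM in the LacZ samples, whose log2 fold change was -0.13 (adjusted p = 0.802 by edgeR). All ARID1A-deficient samples lay below LacZ for MPO by TPM, as in 12.4% of all genes, but the groups overlapped by CPM. For PRTN3 the groups overlapped by both. Of 8 markers of other blood cells, 4 were tested and 0 passed, with 0 at an unadjusted p under 0.05 and 0 called by DESeq2; CD3D was at 0.38 and CD14 at -0.72 (-1.30 to -0.40 with 1 sample left out), and the list summed to 26.7 to 30.3 TPM in LacZ and 27.3 to 33.2 TPM in ARID1A-deficient cells. Of 10 eosinophil, basophil and mast cell markers, 5 were tested and all 5 were at an unadjusted p under 0.05 (7.21% of all genes). With edgeR 3 of them passed, where 0.167% of all genes did. The list was chosen with earlier results of these data known, so these calls are no independent evidence. EPX fell by 1.86 (adjusted p = 0.0182), PRG2 by 1.55 (adjusted p = 0.00634) and HDC by 1.26 (adjusted p = 0.0182) on the log2 scale. Without replicate 1 of LacZ, EPX and HDC no longer passed (adjusted p = 0.245 each), nor did they without replicate 2 (adjusted p = 0.201 and 0.230). Their list summed to 101.9 to 109.8 TPM in LacZ and 39.2 to 45.6 TPM in ARID1A-deficient cells, while the defining marker FCER1A was at 0 in all samples and CLC and PRG3 were near 0. The part of these markers in the values of STRA6, DHRS9 and PRAM1 was not tested.

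**Figure D4:**
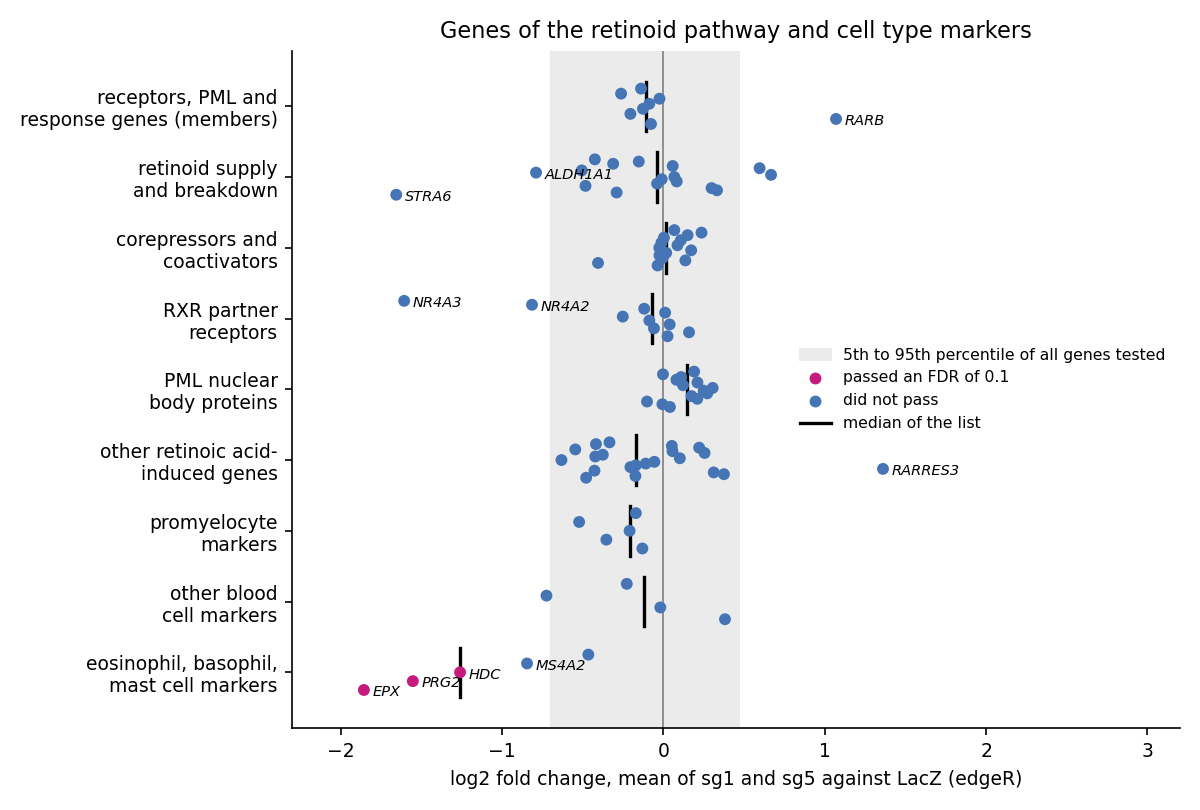
Log2 fold change (x axis, mean of sg1 and sg5 against LacZ by edgeR) of every tested gene of the members and of 8 lists, with the median of each list as a bar and the 5th to 95th percentile of all genes tested (-0.70 to 0.47) as the grey band. Members other than RARB lay between -0.26 and -0.02, and the 3 genes that passed were the eosinophil and mast cell genes EPX, PRG2 and HDC.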

How the data were processed

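RNA-sequencing of 6 NB4 samples (3 groups of 2) was analysed. The authors quantified reads with kallisto, and the submitters' notes also name DESeq2 and hg19. The human transcript set is not given in the sources used here, and a kallisto version is given only for a mouse transcript set. The deposited tables held estimated counts, not always whole numbers since shared reads are split, and TPM, scaled by the authors to effective transcript length. Of 196354 transcripts, 181857 (92.6%) matched GENCODE 29 by identifier and held 95.4% to 95.5% of the counts. The rest were left out. Coordinates are those of GENCODE 29 on GRCh38, 1-based, and not of the authors' tables.

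Counts and TPM were summed per gene, and counts rounded. All 6 samples entered one fit in edgeR (version 4.0.16, R 4.3.3) with group as its only term, TMM factors, a low-count filter (filterByExpr, minimum 10) and the robust quasi-likelihood test, with Benjamini-Hochberg adjustment over 18514 genes and an FDR of 0.1. The common biological coefficient of variation was 16.6%. The fit was tested on simulated data. Alternatives were DESeq2 (version 1.42.0), other factors, filters and estimation, a length offset, the replicate number as a block, unmatched transcripts kept, and leaving out samples; a crossed block was added after seeing the data. The replicate numbers were not taken as pairs, since the labels tie them to nothing shared. Intervals and count limits cover counting or replicate error only.

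Named were all members, the listed genes called in any comparison or else the 2 genes of a list with the smallest p in the ARID1A-deficient comparison, transcripts with a mean share of at least 5%, and ARID1A. Some genes that this rule names are not reported here. The members and lists were chosen with earlier results of these data known. CRABP1, CRABP2, FABP5, RARA-202 and the transcripts with small p-values were named after their values were seen, as were the cell markers given by level. Python 3.11.15 was used for sums and promoter searches.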

Additional observations from a re-analysis of the deposited data

Results flagged for a closer look

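Of 28 genes examined for 1 ARID1A-deficient sample far from the other 3, 3 stood out by Dixon's criterion, and chance alone gives about 1 in 20 groups. CYP26A1 was low in replicate 1 of sg1, at 0.00612 TPM against 0.0806 to 0.0913 in the others, a gap of 0.875 of the range. STRA6 was low in replicate 2 of sg5, at 1.11 TPM against 2.20 to 2.37, a gap of 0.864 of the range. NR4A3 was high in replicate 2 of sg5, at 0.0588 TPM against 0.0110 to 0.0132, a gap of 0.954 of the range. CYP26A1 and NR4A3 rest on few counts, and replicate 1 of sg1 and replicate 2 of sg5 are the samples with the outlying scores on the first principal component.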

How the results depend on the processing

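Of the 8 tested members, 0 were called under every alternative in each of the 4 comparisons, and the 0 calls among RARA and PML transcripts also stood. Of 414 refitted log2 fold changes of members, 396 kept their sign and 18 reversed. Without the libraries that stood apart, leaving 1 sample in sg1 and in sg5 that is assumed to vary like the others, RARB was -0.50 and RXRB 0.13 in sg1, RARG 0.67 in sg5, and RARG 0.16 and RXRB 0.057 in ARID1A-deficient cells. CD38 in sg1 turned to 0.12 with a length offset and to 0.13 with a replicate block and length offset. Leaving out 1 sample each time moved sg1 values of RARA between -0.11 and 0.038, RARB between -0.51 and 1.40, RXRB between -0.23 and 0.12, PML between -0.0027 and 0.048, and CD38 between -0.11 and 0.020. It moved RARG in sg5 between -1.55 and 0.66. In ARID1A-deficient cells it moved RARG between -0.95 and 0.16, RXRB between -0.19 and 0.025, ARID1A between -0.21 and 0.088, RARA-206 between -0.21 and 0.023, RARA-205 between -0.70 and 0.56, PML-207 between -0.081 and 0.20, and PML-212 between -0.0057 and 0.35. The causes were not tested.

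Over the whole table, 31 genes passed in ARID1A-deficient cells, 7 in sg1 and 18 in sg5. DESeq2 called 230, 98 and 186, and the fit without a low-count filter 701, 345 and 632. A replicate block gave 3, 1 and 1 calls and changed no call of a member, while the crossed replicate block gave 194, 59 and 157. With the block, EPX and HDC lost their calls (adjusted p = 0.173 and 0.145), as they did with unmatched transcripts kept and without either LacZ replicate (up to 0.245). Same-numbered samples correlated in their deviations at 0.0719, 0.012 and -0.206. STRA6 and DHRS9 passed with DESeq2, without the filter, with the crossed block and without the libraries that stood apart. STRA6 also passed without either sg5 replicate, but not without either LacZ replicate or either sg1 replicate. Without the libraries that stood apart, when 807 genes passed in all, 3 genes of retinoid supply, 1 coregulator, 5 other retinoic acid-induced genes, 3 promyelocyte and 4 eosinophil and mast cell markers passed. Shares counted by reads in place of TPM were 38.5% for PML-201 and 36.8% for RARA-206. Fitting only the groups compared does not apply to the joined contrast. With 2 samples a group and few counts, changes in RARB, RARG, TGM2, DHRS3 and CYP26A1 could not be resolved.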
